A study of Arabidopsis thaliana with 18 samples.

Results

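The genes described here are 60 loci of Arabidopsis thaliana that code for proteins of the cytosolic ribosome, out of 33602 transcript models counted in each library. They were chosen by locus from a fixed list, with earlier results of these data known. They comprise 26 genes of the small subunit, 29 of the large subunit and 5 of the stalk, the flexible arm of the large subunit, in 29 protein families. Most proteins are encoded by 2 or more paralogues, and 25 of the families are represented by at least 2 loci. All 60 loci carried reads and all 60 passed the filter on low counts. The study sequenced polyadenylated RNA of whole seeds from mpk8 mutant plants, tcp14 mutant plants and wild type, in a project on the release of seed dormancy through phosphorylation. The 6 groups of 3 libraries were imbibed mpk8, imbibed tcp14, imbibed wild type, dry mpk8, dry tcp14 and dry wild type. Imbibed seeds were dormant and lay on wet filter paper for 24 h in darkness at 25 °C, dry seeds had no treatment, and all parent plants grew on soil at 21 °C. Both lines are labelled as gene knock outs, and neither the alleles nor the number of lines per gene is named. Replicates are described as biological, but separate plants or seed lots are not named, so the p-values measure only the spread between these libraries.

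Cytosolic ribosomes translate the mRNAs transcribed in the nucleus. Their small subunit decodes the message, their large subunit joins the amino acids, and the stalk proteins P0, P1 and P2 recruit and activate the translation factors. Dry seeds hold stored mRNA and preformed ribosomes, and translation resumes when water enters the seed. In plants, transcription of ribosomal protein genes accompanies growth, and the TOR kinase acts on ribosomal protein S6 through S6 kinase.

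Per library, 12170793 to 21233207 read pairs were counted. Levels are given as CPM, the pairs of a gene relative to the library size scaled by TMM factors (a scaling that takes most genes as unchanged), and as CPM per kb of the transcript model where genes are set beside each other. MPK8, the mitogen-activated protein kinase gene mutated in the first line, had 4.05, 4.77 and 4.12 CPM in imbibed mpk8 seeds, against 11.1, 11.5 and 12.7 CPM in imbibed wild type, and 3.85, 4.61 and 3.66 CPM in dry mpk8 seeds, against 11.1, 11.1 and 12.1 CPM in dry wild type. TCP14, a TCP-family transcription factor gene, was higher, not lower, in the line named for it: 36.6, 36 and 30.9 CPM in imbibed libraries labelled tcp14, against 13.7, 17.7 and 15.8 CPM in imbibed wild type, and 44.5, 43.5 and 44.2 CPM in dry libraries labelled tcp14, against 5.77, 6.38 and 8.43 CPM in dry wild type. These libraries are therefore called by their label only. The 7 seed storage and late embryogenesis marker genes summed to at least 38740.8 CPM in every library, so the defining markers of the labelled tissue were present throughout.

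Short sequence elements are shared by many of these genes. Site II elements (TGGGCC or TGGGCT) are known in Arabidopsis as binding sequences of TCP transcription factors and as a frequent feature of ribosomal protein promoters, and the telo box (AAACCCTA) is known from genes of the translation apparatus. In the RefSeq annotation of the TAIR10.1 assembly, read on both strands, TGGGCC stood within 250 bases before the start of 34 of the 60 genes (56.7%), against 13.7% of 27443 protein-coding genes. TGGGCT stood there in 27 (45.0%), against 12.3% of all, and at least 1 of these site II forms in 40 (66.7%), against 19.2% of all. The telo box stood in the same window of 9 genes (15.0%), against 4.49% of all, and within the first 50 bases of the gene in 18 genes, against 1.66% of all. A longer class I TCP sequence, GTGGGNCC, stood upstream of 1 gene (1.67%), against 1.09% of all. These letter matches describe the windows, and binding was not measured. Shown are the windows of 250 bases before the start of 5 genes that the results below turn on: the pair for ribosomal protein S6, the pair for small-subunit protein uS4 (the S9 family), whose members differed in imbibed mutant-labelled seeds, and SAG24, the member that did not rise on imbibition in any genotype by the TMM-scaled test. Each is on the gene's strand, 5′ to 3′, overlaps no annotated gene, and has matches to the telo box and both site II forms, on either strand, in capitals.
RPS6, chr4:15347805-15348054, minus strand: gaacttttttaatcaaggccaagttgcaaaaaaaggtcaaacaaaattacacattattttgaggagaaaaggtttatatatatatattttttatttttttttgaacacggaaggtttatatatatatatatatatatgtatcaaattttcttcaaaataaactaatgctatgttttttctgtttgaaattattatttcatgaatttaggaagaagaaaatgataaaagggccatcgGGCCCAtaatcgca
EMB3010, chr5:3260255-3260504, minus strand: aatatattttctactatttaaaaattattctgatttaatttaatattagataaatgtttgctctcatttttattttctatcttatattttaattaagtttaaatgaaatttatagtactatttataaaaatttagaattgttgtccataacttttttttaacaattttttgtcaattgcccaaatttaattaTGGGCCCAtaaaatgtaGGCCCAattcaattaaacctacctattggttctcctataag
AT5G15200, chr5:4936430-4936679, minus strand: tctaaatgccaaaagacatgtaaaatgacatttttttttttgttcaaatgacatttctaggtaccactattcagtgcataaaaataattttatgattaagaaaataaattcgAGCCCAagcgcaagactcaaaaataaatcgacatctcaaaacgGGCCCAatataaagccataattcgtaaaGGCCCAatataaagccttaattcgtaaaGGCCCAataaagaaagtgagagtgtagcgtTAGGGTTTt
AT5G39850, chr5:15949660-15949909, plus strand: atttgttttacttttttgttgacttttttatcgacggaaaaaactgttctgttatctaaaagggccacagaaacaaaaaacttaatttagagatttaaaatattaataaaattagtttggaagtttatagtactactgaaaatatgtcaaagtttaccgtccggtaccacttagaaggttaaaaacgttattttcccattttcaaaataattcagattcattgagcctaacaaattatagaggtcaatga
SAG24, chr1:24838840-24839089, plus strand: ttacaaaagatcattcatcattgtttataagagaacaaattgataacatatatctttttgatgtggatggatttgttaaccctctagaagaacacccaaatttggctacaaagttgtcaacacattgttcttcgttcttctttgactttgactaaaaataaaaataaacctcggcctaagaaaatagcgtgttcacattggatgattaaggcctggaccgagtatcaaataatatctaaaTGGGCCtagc
The RPS6 window holds 1 match, ending close to the start, and that of its paralogue EMB3010 holds 3 matches, of which the first pair overlap on opposite strands. AT5G15200 has 4 site II matches and 1 telo box, while its paralogue AT5G39850 has none of these letters in the window. SAG24 has 1 match. Telo box and site II letters were also missing from the windows of other members. Among them were RPSAb, AT4G10450, XW6, RPS5B, RPL24A, RPS13A, PFL, RPS18C, AT5G02870 and AT1G74050. Whether genes with and without these letters differed between genotypes was not tested.

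Imbibition raised nearly the whole gene set in all 3 genotypes. In wild type, 59 of the 60 genes rose and none fell, with a median log2 fold change of 2.69 (6.46-fold), where 46% of the 18061 genes tested were called higher, 40.1% lower and 86.1% in either direction, and the median of all genes was 0.14. In mpk8 seeds 59 rose and 1 fell (median 2.42, or 2.36 with a gene without pairs in dry seeds set at its lower bound), against 44.4% of all genes called higher, 38.7% lower and 83.1% in either direction. In libraries labelled tcp14, 59 rose and none fell (median 2.33), against 43.8% of all genes called higher, 39.3% lower and 83.1% in either direction. Library totals move the median of all genes by 1.09 in wild type, 0.82 in mpk8 and 0.73 in the tcp14-labelled line, and then all 60 genes were called higher in each genotype. Of all calls, 53.4%, 53.4% and 52.7% were higher in wild type, mpk8 and the tcp14-labelled line, against 79.6%, 77.5% and 75.6% under library totals. Calls are Benjamini-Hochberg adjusted p values under 0.05 from the quasi-likelihood test of edgeR. In whole-seed RNA, a change in the number of cells of a type cannot be told apart from a change in RNA per cell.

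The share of each library that these genes took needs no scaling between libraries, but it is relative to all counted pairs. A change in other abundant transcripts therefore moves it too, as under library totals, which move the median of all genes by 1.09 on imbibition of wild type. The part of the seed markers in the share was not tested. The 60 genes held 2.27% to 2.32% of counted pairs in imbibed mpk8 seeds, 2.34% to 2.71% in imbibed libraries labelled tcp14 and 3.37% to 3.71% in imbibed wild type. The corresponding ranges were 0.276% to 0.292% in dry mpk8 seeds, 0.327% to 0.342% in dry libraries labelled tcp14 and 0.310% to 0.317% in dry wild type. Imbibed and dry libraries did not overlap in any genotype, and the ratio of the means was 8.08 in mpk8, 7.61 in the tcp14-labelled line and 11.2 in wild type. At 24 h neither mutant-labelled group overlapped with wild type. The exact two-sided permutation test gave p = 0.1 for each of these comparisons, the smallest value possible with 3 libraries against 3.

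**Figure D1:**
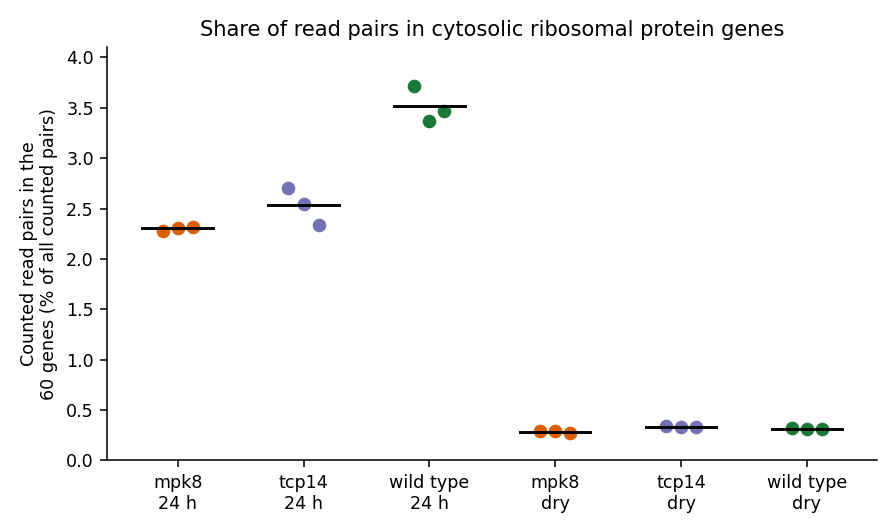
Percentage of all counted read pairs that fell in the 60 genes, 1 point per library and a line at the mean of 3, for imbibed (24 h) and dry seeds of each genotype. Imbibed wild type lies at 3.37% to 3.71%, above both imbibed mutant-labelled groups, and all dry libraries lie between 0.276% and 0.342%.

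The rise covered both subunits and the stalk. All 26 small-subunit genes rose in wild type (median log2 fold change 2.63), as did 28 of 29 large-subunit genes (2.73) and all 5 stalk genes (2.25). The subunit medians of the level itself were close to each other in imbibed wild type, at 317 CPM per kb for the small subunit, 340.4 for the large subunit and 407 for the stalk, against 57.8, 60.03 and 49.5 CPM per kb in dry wild type. The interquartile range of the log2 level over the 60 genes was 1.09 to 1.23 in the 9 imbibed libraries, against 1.34 to 1.52 in the 9 dry libraries.

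**Figure D2:**
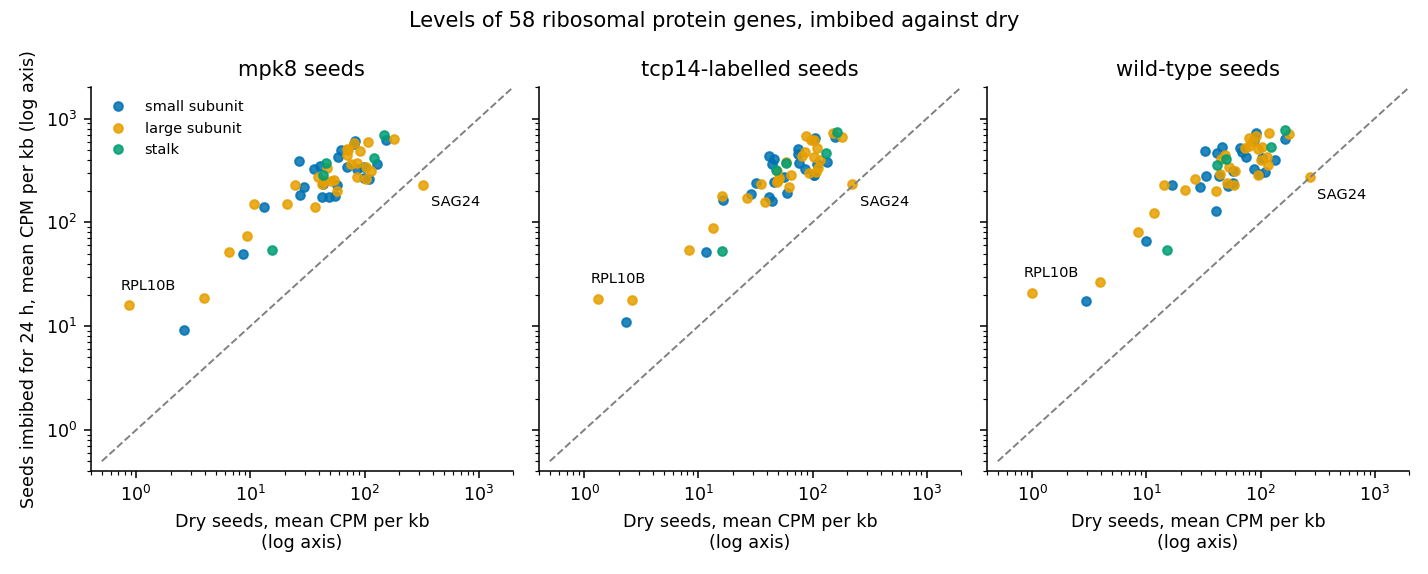
Mean level of 58 of the genes (CPM per kb, log axes) in imbibed seeds against dry seeds, in 3 panels by genotype, 1 point per gene coloured by subunit, with a dashed line at equal levels. All points but SAG24 lie above the line, and SAG24 lies close to it or, in mpk8, below it, with a log2 fold change of -0.51 in mpk8, 0.06 in the tcp14-labelled line and 0.01 in wild type.

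Among small-subunit genes, both genes of S6, the substrate of S6 kinase, rose. RPS6 (AT4G31700) had 556, 510.2 and 530.2 CPM per kb in imbibed wild type, against 48.5, 45 and 44.5 CPM per kb in dry wild type. Its log2 fold change was 3.53 (SE 0.0648, adjusted p = 5.19e-23) in wild type, 3.10 in mpk8 and 3.15 in the tcp14-labelled line. Its paralogue EMB3010 (AT5G10360) had the higher level in dry seeds and the smaller fold change, with 441, 415 and 417 CPM per kb in imbibed wild type, against 76.2, 72.1 and 76.1 CPM per kb in dry wild type, a log2 fold change of 2.50 (SE 0.0616, adjusted p = 7.22e-21). For both genes all imbibed libraries lay above all dry libraries, in each genotype.

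The 3 RPS4 genes code for eS4, a small-subunit protein, and they rose unequally. AT5G07090 had 506, 474 and 473 CPM per kb in imbibed wild type, against 33.7, 30.2 and 34.7 CPM per kb in dry wild type, a log2 fold change of 3.88 (SE 0.0699, adjusted p = 4.16e-23). AT2G17360, the leading RPS4 gene of dry seeds, had 313, 281 and 284 CPM per kb in imbibed wild type, against 103, 92 and 98.1 CPM per kb in dry wild type, a change of 1.58 (SE 0.0628, adjusted p = 5.69e-17). AT5G58420 lay between them, with a change of 3.08 (SE 0.0652, adjusted p = 5.07e-22). The order of the first 2 genes thus differed between states, with AT5G07090 above AT2G17360 in every imbibed library and below it in every dry library. Of the RPS19 genes, AT5G61170 changed by 3.76 (SE 0.0835, adjusted p = 1.1e-21) and AT3G02080 by 2.42 (SE 0.0741, adjusted p = 4.02e-19) in wild type.

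In the annotation an antisense gene overlaps P40, RPS18C, RPL3B, AT1G18540, AT1G74060, AT4G36130, PGY2, RPL24A and UBQ1, and the labels do not say how reads of such overlaps were counted. RPSAb, AT2G41840, RPS13A, UBQ1 and AT3G09200 each overlap a gene on the same strand, which strand cannot separate, so their values are uncertain.

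Among large-subunit genes, the 3 RPL10 genes, for uL16, a protein near the peptidyl transferase centre that joins the subunit late in its assembly, had the greatest change in paralogue share of the 25 families in wild type. SAG24 (AT1G66580) was the most abundant of all 60 genes in dry seeds of each genotype. It had 229, 231 and 234 CPM per kb in imbibed mpk8 seeds, against 331, 329.9 and 325 CPM per kb in dry mpk8 seeds. It had 244, 229 and 222 CPM per kb in imbibed libraries labelled tcp14, against 242, 212 and 212 CPM per kb in dry ones, and 288, 267 and 258 CPM per kb in imbibed wild type, against 273, 270.3 and 266 CPM per kb in dry wild type. The groups overlapped in the tcp14-labelled line and in wild type, while in mpk8 every imbibed library lay below every dry one. Its log2 fold change was -0.51 (SE 0.0546, adjusted p = 1.01e-08) in mpk8, 0.06 (SE 0.0551, adjusted p = 0.32) in the tcp14-labelled line and 0.01 (SE 0.0549, adjusted p = 0.874) in wild type. The direction in mpk8 turns under library totals, which move the median of all genes by 0.82 there and give SAG24 a change of 0.32 (adjusted p = 6.95e-05), so SAG24 fell relative to most genes, not in its part of all counted pairs.

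SAC52 (AT1G14320), named for its role as a suppressor of the dwarf mutant acaulis5, had 746, 705 and 699.7 CPM per kb in imbibed wild type, against 176, 177 and 181 CPM per kb in dry wild type, a log2 fold change of 2.01 (SE 0.0538, adjusted p = 3.4e-20). RPL10B (AT1G26910) was low in both states, at 22.8, 19.6 and 20.6 CPM per kb in imbibed wild type, against 1.1, 1.16 and 0.712 CPM per kb in dry wild type, and changed by 4.38 (SE 0.167, adjusted p = 2.86e-17). Both rose in every genotype, with imbibed libraries above dry ones throughout. SAG24 and SAC52 share 8.59% and 7.98% of their 50-base coding words with other loci. Some of their pairs may therefore have had equally good hits elsewhere, and the authors removed such pairs. How many were removed per gene is not known.

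**Figure D3:**
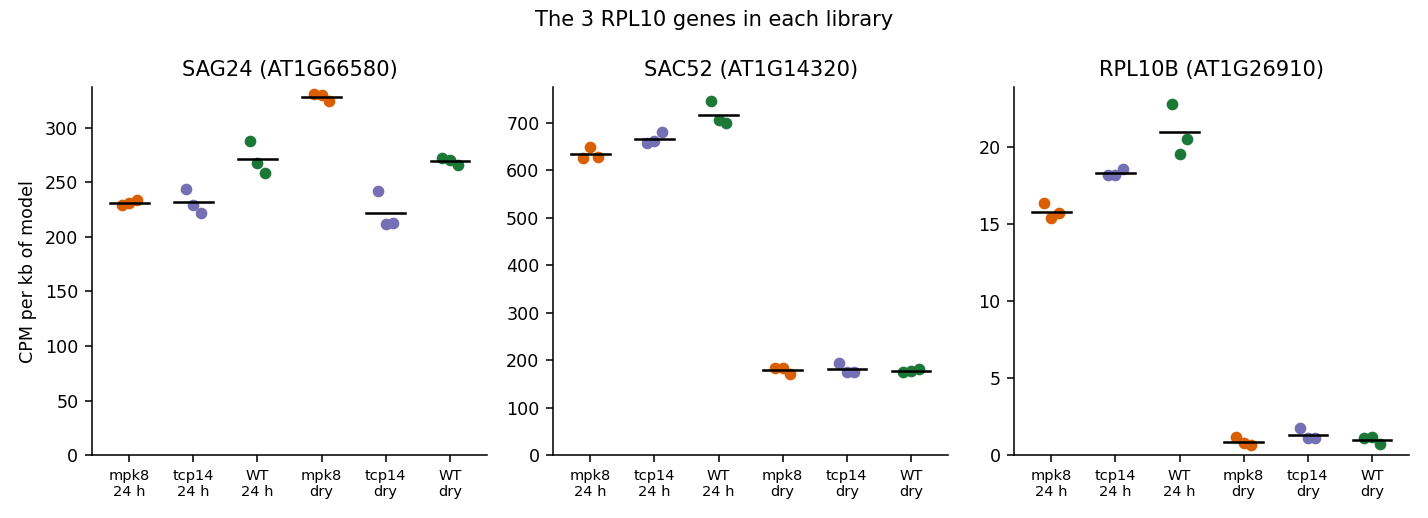
Level of the 3 RPL10 genes (CPM per kb of the model, linear axes from 0) in each library, with a line at the mean of 3, for imbibed (24 h) and dry seeds of each genotype. SAC52 and RPL10B are higher in all imbibed libraries, while SAG24 stays between 212 and 331 CPM per kb in all 18.

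RPL24A (AT2G36620) and STV1 (AT3G53020) code for eL24, and STV1 is known for its part in reinitiation after upstream reading frames. RPL24A had 232, 222 and 228 CPM per kb in imbibed wild type, against 13.9, 14.2 and 15 CPM per kb in dry wild type, and changed by 3.99 (SE 0.0895, adjusted p = 1.37e-21). STV1 had 412, 389.7 and 398 CPM per kb in imbibed wild type, against 95.9, 101 and 105 CPM per kb in dry wild type, and changed by 1.99 (SE 0.0558, adjusted p = 8.16e-20). STV1 stayed above RPL24A in every library of both states. High fold changes were also those of RPL10B and AT5G07090 in mpk8, at 4.18 and 3.86, and of RPL10B and RPL24A in the other genotypes, at 3.75 and 3.47 in the tcp14-labelled line and the values above in wild type. The stalk genes were led by AT3G09200, for P0, the base of the stalk, with 810.4, 771 and 760.4 CPM per kb in imbibed wild type, against 168, 159.7 and 163 CPM per kb in dry wild type.

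Paralogue shares put these differences on a scale that is independent of the scaling between libraries. A share is the percentage that 1 gene holds of the CPM per kb summed over the loci of its family among the 60. Any locus of a family outside the 60 was not counted, so these are not shares of whole families. The 4 families with the greatest change in wild type were RPL10 (33.2 percentage points), RPS4 (32.0), RPL24 (23.8) and RPS19 (19.96). SAG24 held 26.3% ± 0.447 of the RPL10 level in imbibed mpk8 seeds, against 64.6% ± 0.66 in dry mpk8 seeds, and 26.9% ± 0.436 in imbibed wild type, against 60.1% ± 0.644 in dry wild type (SD, n = 3 each). SAC52 took most of the difference, with 71% ± 0.462 in imbibed wild type, against 39.7% ± 0.693 in dry wild type. The leading RPL10 gene was thus SAC52 in all imbibed libraries and SAG24 in all dry ones. Within RPS4, AT2G17360 held 27.6% ± 0.309 in imbibed wild type, against 59.6% ± 0.487 in dry wild type, and AT5G07090 held 45.8% ± 0.697, against 20.1% ± 0.723. RPL24A held 36.3% ± 0.221 of its pair in imbibed wild type, against 12.5% ± 0.154 in dry wild type, and AT5G61170 held 42.4% ± 1.23 of the RPS19 pair, against 22.4% ± 0.882. In each of these families the imbibed and dry libraries did not overlap in any genotype, and the exact two-sided permutation p was 0.1, the smallest possible. The families were chosen by this change in wild type, so the separation and p in wild type are not independent evidence.

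**Figure D4:**
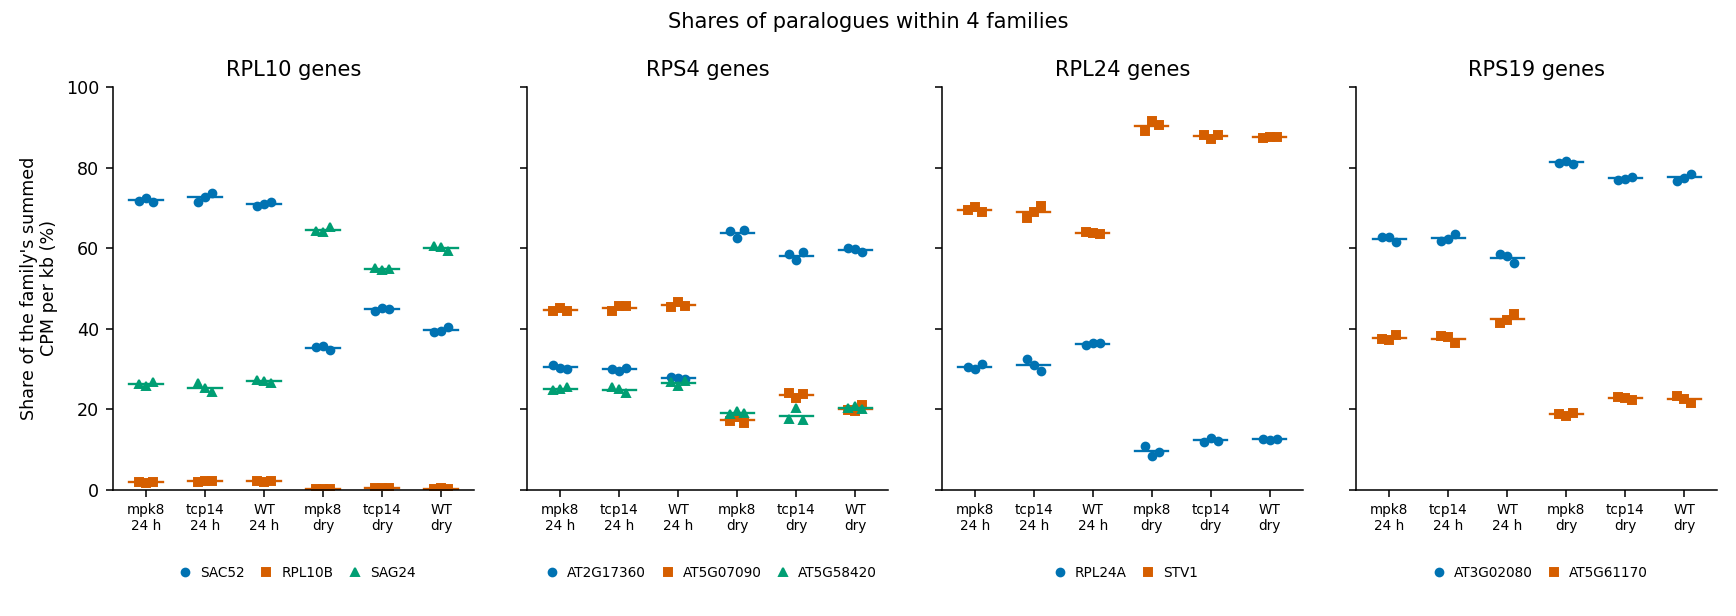
Share of the summed CPM per kb of a family (%) held by each paralogue, in the 4 families with the largest change on imbibition of wild type, 1 point per library and a line at the mean of 3. The order of SAC52 and SAG24 and that of AT5G07090 and AT2G17360 differ between imbibed and dry seeds in each genotype, while STV1 and AT3G02080 hold the larger share in both states.

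At 24 h the set was lower in both mutant-labelled lines than in wild type, by small amounts. The 2 comparisons share the wild-type libraries and so are not independent of each other. In imbibed mpk8 seeds 51 genes were lower and 1 was higher than in imbibed wild type (median log2 fold change -0.31), where 30.8% of all genes tested were called lower, 33.8% higher and 64.6% in either direction, and the median of all genes was 0.04. In imbibed libraries labelled tcp14, 34 were lower and 1 was higher (median -0.17), against 28% of all genes called lower, 27.3% higher and 55.2% in either direction, with a median of all genes of 0.00. By subunit, 21 of 26 small-subunit, 27 of 29 large-subunit and 3 of 5 stalk genes were lower in mpk8, and 17, 15 and 2 in the tcp14-labelled line. Of the called genes, 1 differed by 2-fold or more in mpk8 and none in the tcp14-labelled line. Library totals, which move the median of all genes by -0.32 in mpk8 and -0.33 in the tcp14-labelled line, left 59 genes lower in each comparison and none higher. Of all calls, 52.3% in mpk8 and 49.4% in the tcp14-labelled line were higher, against 19.8% and 12.6% under library totals. Libraries did not overlap for 54 lower genes in mpk8 and 40 in the tcp14-labelled line, where 33.5% and 31.1% of all genes were so separated.

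Marker genes differed between the same libraries. The 7 seed storage and late embryogenesis markers summed to 97393.4 to 99298.7 CPM in imbibed mpk8 seeds and 96923.5 to 140247 CPM in imbibed libraries labelled tcp14, against 38740.8 to 47386.2 CPM in imbibed wild type, and all 7 were higher in each line. The 4 endosperm markers summed to 6283.6 to 7438 CPM and 4689.6 to 6682.9 CPM in the same lines, against 2611.7 to 3438.2 CPM in imbibed wild type, with 1 of the 3 tested higher and 1 lower in each. The 3 leaf markers summed to 80.8 to 89.3 CPM and 139.6 to 174 CPM, against 257 to 304 CPM in imbibed wild type, with 3 lower in mpk8 and 2 in the tcp14-labelled line. Their part in the differences of the ribosomal protein genes was not tested.

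Of the small-subunit genes, RPSAb (AT3G04770), for uS2, had 7.9, 10.1 and 9.7 CPM per kb in imbibed mpk8 seeds and 12.1, 12.1 and 8.63 CPM per kb in imbibed libraries labelled tcp14, against 17.4, 16.5 and 18.9 CPM per kb in imbibed wild type. Its log2 fold change was -0.94 (SE 0.111, adjusted p = 1.37e-07) in mpk8 and -0.68 (SE 0.11, adjusted p = 1.8e-05) in the tcp14-labelled line, with no overlap of libraries. Its far more abundant paralogue P40 (AT1G72370), shown for contrast after its values were seen, had 608, 639.8 and 636 CPM per kb in imbibed mpk8 seeds, against 638, 647 and 631 CPM per kb in imbibed wild type, and these overlapped. RPS6 had 342, 355 and 350.3 CPM per kb in imbibed mpk8 seeds and 426, 399 and 400.2 CPM per kb in imbibed libraries labelled tcp14, against 556, 510.2 and 530.2 CPM per kb in imbibed wild type. Its log2 fold change was -0.61 (SE 0.0552, adjusted p = 2.32e-09) in mpk8 and -0.38 (SE 0.0551, adjusted p = 4.25e-06) in the tcp14-labelled line, and those of EMB3010 were -0.32 and -0.18, with no overlap of libraries for either gene.

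One member went the other way. AT5G39850, an S9-family gene for uS4, a protein of the mRNA entry channel, had 171, 176 and 176 CPM per kb in imbibed mpk8 seeds and 151, 162 and 169.9 CPM per kb in imbibed libraries labelled tcp14, against 138, 127 and 122 CPM per kb in imbibed wild type. Every library of both lines lay above every wild-type library, and the log2 fold change was 0.43 (SE 0.0533, adjusted p = 2.42e-07) in mpk8 and 0.32 (SE 0.0535, adjusted p = 3.14e-05) in the tcp14-labelled line, where under library totals it was 0.10 (adjusted p = 0.0796) in mpk8 and turned to -0.021 (adjusted p = 0.728) in the tcp14-labelled line. Its paralogue AT5G15200 had 557, 569 and 571 CPM per kb in imbibed mpk8 seeds and 630.0, 641 and 669 CPM per kb in imbibed libraries labelled tcp14, against 776, 695 and 704 CPM per kb in imbibed wild type. Within this pair the share does not depend on the scaling between libraries, but the gene was named for its call in these same libraries. The share and its p below are therefore not independent evidence. AT5G39850 held 23.6% ± 0.0934 of the pair's level in imbibed mpk8 seeds and 19.9% ± 0.511 in imbibed libraries labelled tcp14, against 15.1% ± 0.323 in imbibed wild type (SD, n = 3 each, exact two-sided permutation p = 0.1, the smallest possible).

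Among large-subunit genes, AT2G36170, which codes for ubiquitin fused to eL40, had 75.2, 72.3 and 73.6 CPM per kb in imbibed mpk8 seeds and 102, 88.3 and 76.9 CPM per kb in imbibed libraries labelled tcp14, against 133, 113 and 125 CPM per kb in imbibed wild type. Its log2 fold change was -0.75 (SE 0.0869, adjusted p = 1.01e-07) in mpk8 and -0.47 (SE 0.0865, adjusted p = 7.44e-05) in the tcp14-labelled line. AT4G10450, an RPL9 gene for uL6, was lower, at -0.64 (SE 0.0708, adjusted p = 4.83e-08) in mpk8 and -0.58 (SE 0.0711, adjusted p = 4.43e-07) in the tcp14-labelled line. Libraries of the compared groups did not overlap for either gene. AT1G18540, an RPL6 gene for eL6, had 254, 261 and 266 CPM per kb in imbibed mpk8 seeds and 327, 304 and 292 CPM per kb in imbibed libraries labelled tcp14, against 445, 401 and 421 CPM per kb in imbibed wild type, with log2 fold changes of -0.70 in mpk8 and -0.46 in the tcp14-labelled line. It held 35.5% ± 0.583 of the level of the 3 RPL6 genes in imbibed mpk8 seeds and 37.4% ± 1.97 in imbibed libraries labelled tcp14, against 44.9% ± 0.994 in imbibed wild type. AT4G10450 held 17.2% ± 0.468 and 18.3% ± 1.49 of the summed level of AT4G10450 and PGY2 in the same lines, against 25.1% ± 0.606 in imbibed wild type. PGY2 shares 76.3% of its 50-base coding words with other loci, and pairs with equally good hits elsewhere were removed. The share of AT4G10450 is therefore uncertain. AT1G18540 and AT4G10450 were named for calls that use these same libraries, so their shares are not independent evidence.

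**Figure D5:**
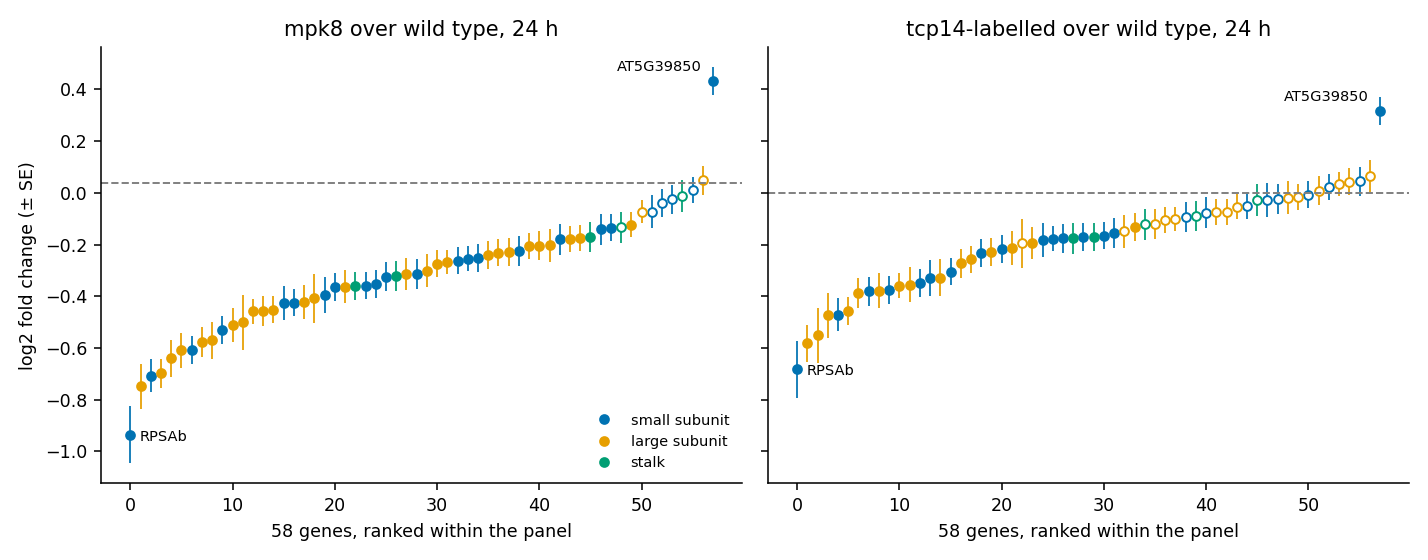
Log2 fold change with SE of 58 of the genes in imbibed mpk8 seeds (left panel) and imbibed libraries labelled tcp14 (right panel) over imbibed wild type, ranked within each panel, filled where the adjusted p is under 0.05 and coloured by subunit, with the median of all genes tested as a dashed line. Most genes lie below the dashed line, RPSAb is lowest of those drawn at -0.94 and -0.68, and AT5G39850 is highest at 0.43 and 0.32.

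Whether imbibition acted differently by genotype was tested as an interaction. The log2 fold change on imbibition was lower in mpk8 than in wild type for 25 genes and higher for 1 (median difference -0.19), where 15% of all genes had a called lower interaction, 24% a higher one and 39% either. In the tcp14-labelled line it was lower for 33 genes and higher for none (median -0.26), against 13.9% of all genes lower, 19.2% higher and 33.2% either. Library totals, which move the median of all genes by -0.27 and -0.36, gave 54 and 57 genes with a lower fold change and none with a higher one, and 26.5% and 12.02% of all calls higher, against 61.5% and 58.0% before. The most negative interactions in mpk8 were those of RPSAb at -0.75 (SE 0.224, adjusted p = 0.00997), AT1G18540 at -0.56 (SE 0.0821, adjusted p = 1.17e-05) and SAG24 at -0.52 (SE 0.0774, adjusted p = 1.68e-05). The positive one was AT5G39850 at 0.37 (SE 0.0846, adjusted p = 0.00125), which was 0.11 (adjusted p = 0.31) under library totals. In the tcp14-labelled line the most negative were AT2G36170 at -0.70 (SE 0.172, adjusted p = 0.00307), XW6 (AT1G58380), an RPS2 gene for uS5, at -0.58 (SE 0.128, adjusted p = 0.00112), and AT4G10450 at -0.57 (SE 0.144, adjusted p = 0.00393). XW6 shares 40.9% of its 50-base coding words with other loci, so its count is uncertain. The count of PGY2, the paralogue of AT4G10450, is uncertain too, at 76.3%, while AT4G10450 itself shares 0.0%.

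In dry seeds fewer members were called between genotypes, 4 in mpk8 and 13 in the tcp14-labelled line, against 2.62% and 11.4% of all genes. The share of counted pairs was 0.285% ± 0.00844 in dry mpk8 seeds and 0.332% ± 0.00855 in dry libraries labelled tcp14, against 0.313% ± 0.00357 in dry wild type, each an exact two-sided permutation p of 0.1 (SD, n = 3 each). In mpk8, 3 were lower and 1 higher than in wild type, against 1.09% of all genes tested called lower and 1.53% called higher. SAG24 was higher at 0.29 (SE 0.0553, adjusted p = 0.00694), with 331, 329.9 and 325 CPM per kb in dry mpk8 seeds, against 273, 270.3 and 266 CPM per kb in dry wild type and no overlap, but was 0.22 (adjusted p = 0.0836) under library totals. The lower genes were AT5G07090 at -0.29 (SE 0.0761, adjusted p = 0.0397), BBC1 (AT3G49010), for eL13, at -0.26 (SE 0.0612, adjusted p = 0.0235), and AT5G02870, an RPL4 gene for uL4, at -0.25 (SE 0.0557, adjusted p = 0.0197). The count was 18 when the dry mpk8 and wild-type groups were fitted alone, 7 with the Wald test of DESeq2 and 9 under library totals, and leaving out single libraries gave 1 to 4, with 1 left without wild-type replicate 3 or mpk8 replicate 3 and 2 without wild-type replicate 1 or mpk8 replicate 2.

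In dry libraries labelled tcp14, 11 members were higher and 2 lower, against 6.12% of all genes tested called higher and 5.27% called lower. AT2G44120, an RPL7 gene for uL30, had 40.0, 31.4 and 34 CPM per kb in dry libraries labelled tcp14, against 28.1, 24.9 and 27.4 CPM per kb in dry wild type, and was higher by 0.40 (SE 0.0807, adjusted p = 0.00146). RP1 (AT1G43170), for uL3, was higher by 0.36 (SE 0.0679, adjusted p = 0.000692), and AT5G07090 by 0.34 (SE 0.0729, adjusted p = 0.00259). Lower were AT1G34030, an RPS18 gene for uS13, at -0.30 (SE 0.0669, adjusted p = 0.00359), and SAG24 at -0.28 (SE 0.0557, adjusted p = 0.00146). Libraries of the compared groups did not overlap for any of these 5 genes. The count fell to 6 without tcp14 replicate 1, 7 without wild-type replicate 2 and 8 without wild-type replicate 1.

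Related gene groups were set beside the ribosomal protein genes. Of 21 ribosome biogenesis genes, 18 rose and 1 fell on imbibition of wild type (median 0.91), where 46% of all genes were called higher and 40.1% lower, led by FIB2, fibrillarin of the small nucleolar RNPs, at 4.65 (SE 0.0666, adjusted p = 1.74e-24), NAP57, the pseudouridine synthase, at 2.66 (SE 0.0688, adjusted p = 1.9e-20), and AT1G52930, a Brix-domain rRNA processing gene, at 2.08 (SE 0.0772, adjusted p = 1.69e-17). In imbibed mpk8 seeds 8 were higher and 10 lower than in wild type, where 33.8% of all genes were called higher and 30.8% lower. In imbibed libraries labelled tcp14, 3 were higher and 10 lower, where 27.3% of all genes were called higher and 28% lower. The shares of all genes given here apply also to the imbibition counts in wild type and the 24 h counts of the lists that follow. Library totals turned the counts to 0 higher in both lines, with 16 lower in mpk8 and 20 in the tcp14-labelled line. Of the 26 tested translation factor genes, 23 rose and 3 fell on imbibition of wild type (median 0.97). The elongation factor genes AT5G19510 and AT5G60390 rose by 2.58 (SE 0.0624, adjusted p = 5.54e-21) and 2.33 (SE 0.0699, adjusted p = 2.74e-19). ELF5A-1, for eIF5A, had the highest fitted fold change but lay near the limit of detection, with 1.34, 0.898 and 0.964 CPM in imbibed wild type, against 0, 0.17 and 0.104 CPM in dry wild type, so its fold is not given. At 24 h, 8 factor genes were higher and 13 lower in mpk8, and 4 were higher and 10 lower in the tcp14-labelled line, against 1 and 21, and 0 and 24, under library totals.

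All 5 genes of TOR, its partners and S6 kinase were lower in imbibed than in dry wild type (median -0.70), where 40.1% of all genes were called lower. Library totals turned this to 3 higher and 2 lower. S6K2, a kinase of S6, changed by -3.55 (SE 0.0683, adjusted p = 1.05e-22), or -2.46 under library totals, and RAPTOR1, the substrate-binding partner of TOR, by -1.49 (SE 0.0511, adjusted p = 3.61e-18), or -0.40. LST8-1, another TOR partner, changed by -0.70, and by 0.39 under library totals. At 24 h, S6K2 was higher by 0.77 (SE 0.0697, adjusted p = 2.1e-09) in mpk8 and 0.60 (SE 0.0711, adjusted p = 2.65e-07) in the tcp14-labelled line, and its paralogue PK1, for S6 kinase 1, was lower, at -0.65 (SE 0.0793, adjusted p = 2.33e-07) and -0.57 (SE 0.0797, adjusted p = 2.82e-06). Under library totals S6K2 was 0.44 in mpk8 and 0.27 in the tcp14-labelled line, and PK1 was -0.98 and -0.90, so the S6 kinase paralogues differed from wild type in opposite directions under both scalings. Of the 5 genes, 3 were higher and 1 lower in each line at 24 h, against 2 higher and 2 lower in mpk8 and 1 higher and 2 lower in the tcp14-labelled line under library totals.

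The 20 genes of plastid ribosomal proteins, which build a separate ribosome, gave 19 higher and 1 lower in imbibed wild type (median 1.91), where 46% of all genes were called higher and 40.1% lower. At 24 h all 20 were lower in mpk8 (median -0.65) and 18 were lower in the tcp14-labelled line (median -0.38), beside medians of -0.31 and -0.17 for the cytosolic genes. GHS1, for plastid S21, had a log2 fold change of -1.35 (SE 0.068, adjusted p = 3.58e-13) in mpk8, and RPL9, for plastid L9, had one of -0.77 (SE 0.0578, adjusted p = 4.06e-10) in the tcp14-labelled line. The leaf markers given above were lower in the same lines, and their part in these values was not tested.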

How the data were processed

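The authors deposited a table of read counts per transcript model for each of 18 libraries (33602 models), with counts of single reads and of read pairs and, per the file headers, pairs with equally good hits elsewhere removed (1.31% to 2.11% of pairs). TopHat2, Bowtie2 and the TAIR10 build are named in the submitters' processing notes, and versions are not given in the sources used here. Counts of read pairs were used. Library sizes were scaled by TMM, genes were filtered with filterByExpr over the 6 groups, and all 18061 remaining genes were fitted with 1 mean per group by the quasi-likelihood test of edgeR 4.0.16 (limma 3.58.1, R 4.3.3), with Benjamini-Hochberg adjustment and a threshold of 0.05. Standard errors were derived from the fold change and its F statistic. The fit was also run on simulated data, in which only a random selection of genes differed between imbibed mpk8 and imbibed wild type. In the real data 64.6% of all genes were called there, so the simulation does not measure the errors of these calls. CPM are counts over effective library size, per kb of the deposited model length. Promoters come from the RefSeq annotation of TAIR10.1, found by locus name. Words of 50 bases of each longest coding sequence were searched in the exons of other loci.

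The genes and lists were chosen with earlier results of these data known. Named are, per comparison, the 3 called members with the most positive and the 3 with the most negative change, exceptions in the imbibition comparisons, families with the 4 greatest changes in paralogue share, both S6 genes, the targeted genes, and up to 3 leaders per related list. The genes of 1 family count in the totals but are not reported singly here, and 58 genes are drawn. Alternatives were DESeq2 1.42.0 (size factors and Wald test), library totals, no filter, single reads, the compared groups alone, a 2-fold minimum, a replicate block and leaving out each library. Replicates were not duplicates of each other (chi-square per gene 1.58 to 18.2). Whether overlapping genes were counted by strand is not given in the sources used here.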

Additional observations from a re-analysis of the deposited data

Results flagged for a closer look

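The response to imbibition differed from that of wild type, by a test of the difference itself (the interaction in edgeR's quasi-likelihood fit), for 26 of the 60 genes in mpk8, where 39% of all genes tested were called, and for 33 in the tcp14-labelled line, where 33.2% were called. In mpk8 the count in either direction is near the share of all genes. By direction, 25 were lower and 1 higher in mpk8, against 15% and 24% of all genes. In the tcp14-labelled line 33 were lower and 0 higher, against 13.9% and 19.2% of all genes. Both sets use the same wild-type libraries. Listed are those among the genes chosen by the naming rule or belonging to the 4 families with the greatest change in paralogue share. In mpk8 these are 12, given as log2 interactions: RPS6 -0.44, EMB3010 -0.22, RPSAb -0.75, AT5G39850 0.37, AT1G34030 -0.29, AT3G02080 -0.40, AT5G61170 -0.35, AT5G02870 -0.21, AT1G18540 -0.56, SAC52 -0.19, SAG24 -0.52 and STV1 -0.25. Apart from AT5G39850, the log2 fold change on imbibition was lower in mpk8 than in wild type for each of them. By the TMM-scaled test SAG24 fell in mpk8 without a called change in wild type. Under library totals SAG24 instead changed by 0.32 in mpk8, and all 60 genes were called higher on imbibition in both genotypes. In the tcp14-labelled line these are 14: RPS6 -0.38, EMB3010 -0.22, XW6 -0.58, AT5G07090 -0.50, AT5G61170 -0.46, RP1 -0.38, AT5G02870 -0.30, AT1G18540 -0.39, AT2G44120 -0.55, AT4G10450 -0.57, BBC1 -0.22, RPL24A -0.51, STV1 -0.21 and AT2G36170 -0.70. The log2 fold change was lower than in wild type for each of these 14. A lower interaction can also come from a higher level in dry seeds. BBC1 averaged 620 CPM per kb in imbibed tcp14-labelled libraries and 601 in imbibed wild type, against 104 and 86.2 in dry seeds. For RPS6 the dry means were close, at 45.9 in tcp14-labelled libraries and 46.0 CPM per kb in wild type. Seed storage and late embryogenesis markers were higher in the imbibed libraries of both lines, and their part in the interactions was not tested.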

How the results depend on the processing

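Counts of called members stayed within 1.5 times under DESeq2 size factors, no filter on low counts and single reads. Library totals gave 59 called for imbibed tcp14-labelled libraries, 9 for dry mpk8 seeds, and 54 and 57 for the interactions of mpk8 and the tcp14-labelled line. The DESeq2 Wald test gave 7 and the compared groups alone 18 for dry mpk8 seeds. A 2-fold minimum left 1 in imbibed mpk8 seeds and 0 in imbibed tcp14-labelled libraries, in dry mpk8 seeds, in dry tcp14-labelled libraries and in both interactions. Leaving out 1 library gave 59 to 59 called on imbibition of wild type, 60 to 60 in mpk8, 59 to 60 in the tcp14-labelled line, 47 to 53 and 28 to 36 at 24 h in mpk8 and the tcp14-labelled line, 1 to 4 and 6 to 12 in dry seeds, and 20 to 28 and 26 to 35 for the interactions. In dry mpk8 seeds the balance turned to 1 higher and none lower without wild-type replicate 3 or mpk8 replicate 3. The share of counted pairs differed by 3.11 to 3.28, 2.01 to 2.03 and 2.11 to 2.29 percentage points on imbibition of wild type, mpk8 and the tcp14-labelled line, by -1.29 to -1.12 and -1.07 to -0.888 at 24 h, and by -0.0318 to -0.0235 and 0.0145 to 0.0221 in dry seeds. Under library totals 7 single-gene values turned: LST8-1 (0.39) on imbibition of wild type, SAG24 (0.32) on imbibition of mpk8, TCP14 (-0.33) at 24 h in mpk8, AT5G39850 (-0.021), BBC1 (-0.29) and RAPTOR1 (-0.021) at 24 h in the tcp14-labelled line, and SAG24 (-0.31) in the tcp14 interaction. That scaling moves all genes by the shifts given with the results. Replicate numbers were not taken as pairs, since correlations of deviations between same-numbered libraries were -0.271 to 0.478 and not all above 0.1. As a hint from the data, libraries correlated best with their own number in 6 of 6 cases for imbibition of the tcp14-labelled line, 5 for dry mpk8 seeds, 4 each for imbibition of wild type and 24 h mpk8, 3 for imbibition of mpk8, and 2 each for 24 h and dry tcp14. With the replicate block the counts were 59, 60, 59, 53, 36, 4, 13, 27 and 33, in the order imbibition of wild type, mpk8 and tcp14, 24 h mpk8 and tcp14, dry mpk8 and tcp14, and both interactions. Depth limits the genes of low level, such as RPL10B in dry seeds.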
